A study of Mus musculus with 6 samples.

Results

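Hox genes encode homeodomain transcription factors that give cells their position along the head-to-tail axis. Here brainstem motor neuron RNA of mice was hybridised to Affymetrix arrays, with 3 samples from wild-type (WT) mice and 3 from SOD1 mice. SOD1 encodes copper-zinc superoxide dismutase, and mice carrying mutant forms of it are used as models of amyotrophic lateral sclerosis. The sources used here do not give the allele, strain, sex or age, nor how the cells were collected. All 6 samples were amplified in 2 rounds with a T7-based method. A probe set is a group of oligonucleotides that together read 1 transcript. The members were all probe sets with exactly 1 gene symbol made of Hoxa, Hoxb, Hoxc or Hoxd and a number, which gave 48 of the 45101 probe sets on the array, for 33 genes. In the RefSeq gene table (GRCm38.p6), all 48 members matched by Entrez identifier, to 33 of the 39 such genes that the table holds in 4 clusters. The Hoxa cluster lies on chromosome 6 (9 of its 11 genes had a member), Hoxb on chromosome 11 (9 of 10), Hoxc on chromosome 15 (7 of 9) and Hoxd on chromosome 2 (8 of 9).

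Genes with the same number in different clusters arose from a common ancestor and form a paralogue group. Low numbers sit at the 3' end of a cluster and are switched on first and farthest toward the head, a rule known as collinearity. In the embryo the forebrain and midbrain lack Hox transcripts, groups 1 to 4 have their front limits in the hindbrain, and groups 5 to 13 have theirs at about the junction with the spinal cord or behind it. In motor neurons Hox proteins help set which nucleus or column a cell joins, and some Hox genes stay on in the adult. They bind DNA together with PBX and MEIS proteins, and retinoic acid, Polycomb and Trithorax proteins control where they are on.

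Sequence upstream of the start is shown for the members of groups 1 to 3 that are described by array below and that the RefSeq promoter table (GRCm38.p6) holds. Groups 2 and 3 had the largest share of values above background, and Hoxb1 of group 1 was below background on all 3 WT arrays. Hoxb2 and Hoxb3 are named only. Each run covers 250 bases before and 50 after the transcript start, 5′ to 3′ on the gene's strand. Capitals mark matches, on either strand, to TGATNNAT (a PBX-HOX site), TGACAG (a MEIS site), AGGTCA (the core motif of retinoic acid receptors) or CCAAT. The intervals are chr11:96365508-96365807 on the plus strand for Hoxb1, chr6:52164782-52165081 on the minus strand for Hoxa2, chr6:52213018-52213317 on the minus strand for Hoxa3 and chr2:74711743-74712042 on the plus strand for Hoxd3.
Hoxb1: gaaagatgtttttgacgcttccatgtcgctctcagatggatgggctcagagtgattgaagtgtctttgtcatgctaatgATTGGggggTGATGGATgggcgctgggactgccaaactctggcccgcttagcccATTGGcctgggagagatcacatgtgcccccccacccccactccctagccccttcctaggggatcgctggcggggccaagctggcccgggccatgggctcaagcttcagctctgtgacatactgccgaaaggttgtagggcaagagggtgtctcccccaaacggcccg
Hoxa2: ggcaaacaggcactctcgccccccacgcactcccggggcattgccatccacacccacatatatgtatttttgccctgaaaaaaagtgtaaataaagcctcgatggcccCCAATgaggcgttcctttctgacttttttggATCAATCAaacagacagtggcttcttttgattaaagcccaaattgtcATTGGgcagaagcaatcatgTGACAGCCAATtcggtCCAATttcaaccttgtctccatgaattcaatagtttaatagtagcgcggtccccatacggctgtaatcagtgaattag
Hoxa3: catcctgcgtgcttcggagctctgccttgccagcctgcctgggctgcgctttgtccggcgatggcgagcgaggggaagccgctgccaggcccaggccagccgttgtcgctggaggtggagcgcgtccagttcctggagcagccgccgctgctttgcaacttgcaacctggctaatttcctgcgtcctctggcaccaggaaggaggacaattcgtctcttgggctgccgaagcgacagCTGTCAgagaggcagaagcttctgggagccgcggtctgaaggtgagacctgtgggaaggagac
Hoxd3: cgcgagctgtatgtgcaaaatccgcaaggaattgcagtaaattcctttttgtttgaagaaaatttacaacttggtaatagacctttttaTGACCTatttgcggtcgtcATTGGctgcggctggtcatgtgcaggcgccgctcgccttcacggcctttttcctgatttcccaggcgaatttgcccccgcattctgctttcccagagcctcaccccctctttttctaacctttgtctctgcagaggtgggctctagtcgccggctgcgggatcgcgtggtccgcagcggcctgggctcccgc

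The Hoxa2 window held a PBX-HOX match whose first base lies at -111 from the start, a MEIS match at -44 and CCAAT matches at -142, -64, -38 and -28, the MEIS match running directly into the CCAAT match at -38. In Hoxb1, which is known to regulate itself through PBX-HOX sites, a PBX-HOX match lay at -162 and CCAAT matches at -171 and -117. The Hoxa3 window held a MEIS match at -13, and the Hoxd3 window a retinoic acid receptor motif at -161 and a CCAAT match at -142. The RefSeq model of Hoxa3 spans Hoxa4, Hoxa5 and Hoxa6, and that of Hoxd3 spans Hoxd4. A start shown for these genes can therefore lie beyond the genes that the model spans. Over the 32851 windows of the same length in the table, 8.85% held TGATNNAT, 19.2% TGACAG, 16.3% AGGTCA and 37.4% CCAAT. Of 21 Hox windows for 19 member genes, 3 held TGATNNAT, 2 TGACAG, 6 AGGTCA and 12 CCAAT. These matches describe letters and were not tested against the array values.

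The deposited table has no detection calls, so a background was set on each array as the 95th percentile of 27 probe sets for bacterial genes. Values are log2 of the quantile-normalised signal plus 16, and the background was 7.24, 7.35 and 7.23 on WT replicates 1 to 3 and 7.21, 7.61 and 7.30 on SOD1 replicates 1 to 3. Across all 45037 non-control probe sets, 65.7% of values lay above it. Of the values of 43 olfactory receptor probe sets, which read genes of the nose, 21.7% did, so some values above this level need not be expression. The number of arrays limits the precision, and the labels do not say whether samples of a genotype came from different mice, so the p-values rest on a spread between samples that may be technical. Xist, which is transcribed from the inactive X chromosome, averaged 12.83 and 12.91 on SOD1 replicates 1 and 2 and 5.71 on SOD1 replicate 3. On the WT arrays it averaged 5.76 to 7.07, so sex may differ between the genotypes and within the SOD1 samples. No WT array has high Xist, so estimates given below with Xist as a covariate rest largely on SOD1 replicate 3. By the brightest probe set of each gene, all 8 motor neuron markers with a probe set were above background on all 6 arrays. They were Chat, Isl1, Isl2, Nefh, Prph, Ret, Slc18a3 and Slc5a7. Of 5 Sod1 probe sets 0 passed the test of SOD1 against WT, but a mouse probe set need not read a human SOD1 transcript.

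Most Hox values were below background in these samples, and those above it were most frequent in paralogue groups 2 and 3. Single probe sets of other groups, such as those of Hoxa9 and Hoxc10, also lay above it. The samples hold RNA of other cell types too, as described below, so the cells that hold the Hox RNA are not known. Of the 48 probe sets, 4 were above background on all 6 arrays (1 each of Hoxb2, Hoxa3, Hoxb3 and Hoxa9), against 46.8% of all probe sets and 0 of 43 olfactory receptor probe sets. On at least 5 arrays 8 of the 48 were above, against 54.5% of all probe sets and 2.33% of olfactory receptor probe sets. Another 12 of the 48 were above on 0 arrays, against 12.9% of all probe sets and 30.2% of olfactory receptor probe sets. At least 2 of the 3 arrays of a genotype were above for 19 of the 48 members (15 genes), and these 19 are described by array. The same held for 71.7% of all probe sets and 20.9% of olfactory receptor probe sets. By array, 15, 16 and 21 Hox probe sets were above background on WT replicates 1 to 3 and 19, 13 and 14 on SOD1 replicates 1 to 3. The lowest count fell on SOD1 replicate 2, the array with the highest background. All 288 Hox values lay between 4.43 and 9.74.

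**Figure D1:**
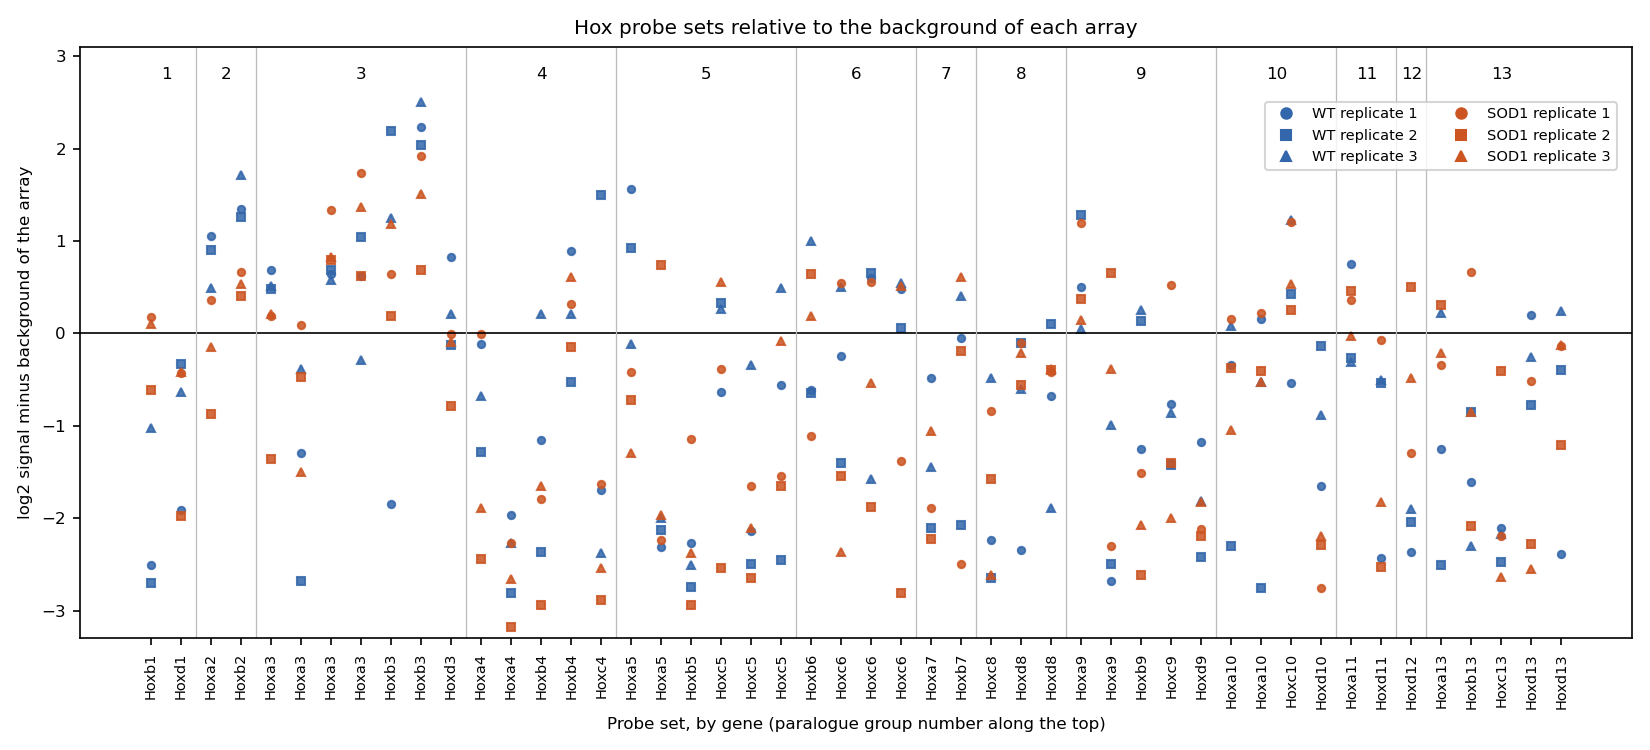
Log2 signal of the 48 Hox probe sets (x axis, by gene within paralogue group) minus the background of the same array (y axis), with 1 point per array, blue for WT and orange for SOD1. Points of groups 2 and 3 lie mostly above the line at 0 (40 of 54), and those of the other groups mostly below it (58 of 234 above).

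Groups 2 and 3, with 9 probe sets of 5 genes, had 40 of 54 values above background (74.1%). The other groups had 58 of 234 (24.8%), beside 21.7% for the olfactory receptors. Limits inside the hindbrain are not particular to groups 2 and 3, since groups 1 and 4 have them too and had 2 of 12 and 6 of 30. The split of groups 2 and 3 from the others was chosen after the values were seen and has no test. It was 61.1% against 17.5% with the highest bacterial control as background and 51.9% against 10.7% with the 95th percentile of the olfactory receptors. With the 40th percentile of each array it was 64.8% against 15.4%. The olfactory receptors had 9.3% of values above the highest bacterial control and 10.9% above the 40th percentile, less than the other Hox groups. Their share above their own 95th percentile, 6.98%, is fixed by how that level was set and is no comparison. With these 3 levels, in the order given, the probe sets above background on all 6 arrays numbered 2, 1 and 3. The 1 kept by the olfactory receptor level was that of Hoxb3 (1456229_at). In the WT samples alone, groups 2 and 3 had 21 of 27 values above background, and in the SOD1 samples 19 of 27.

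Over wider ranges, groups 1 to 4 had 48 of 96 values above background, groups 5 to 8 had 22 of 90 and groups 9 to 13 had 28 of 102. Group 4, whose limit lies near the end of the hindbrain, had 6 of 30, and group 6 had 12 of 24, the most outside groups 2 and 3. By cluster, the values above background were 40 of 96 for Hoxa, 32 of 66 for Hoxb, 20 of 66 for Hoxc and 6 of 60 for Hoxd. The Hoxc cluster has no gene of groups 1 to 3 in the reference table. Probe sets differ in how well they bind, so no level of 1 probe set is set against that of another here.

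**Figure D2:**
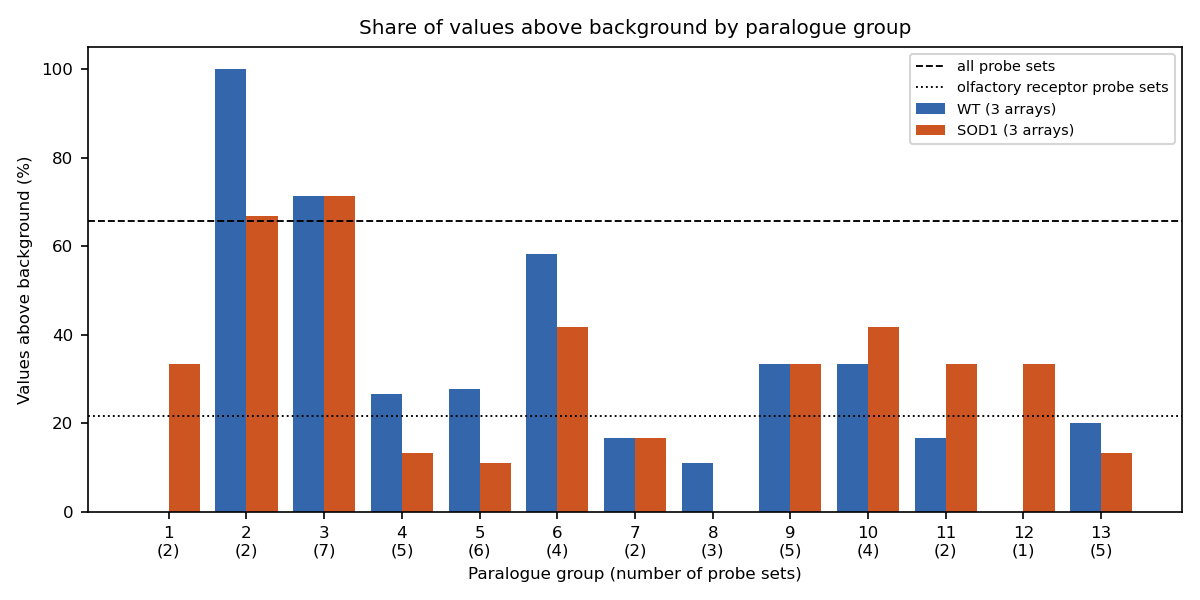
Share of values above background (y axis, percent) for each paralogue group (x axis, number of probe sets in brackets), with blue bars for the 3 WT arrays and orange bars for the 3 SOD1 arrays. The dashed line is all probe sets (65.7%) and the dotted line the olfactory receptors (21.7%). Groups 2 and 3 reach 66.7% or more in both genotypes.

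Hoxb2, a group 2 gene that helps form facial motor neurons, was above background on every array. Its probe set (1449397_at) read 8.59, 8.61 and 8.95 on WT replicates 1 to 3 and 7.87, 8.01 and 7.83 on SOD1 replicates 1 to 3. All SOD1 values were below all WT values, as for 7.89% of all probe sets. The difference was -0.81 ± 0.46 (log2, SOD1 minus WT, ± SE, n = 3 per genotype, limma, adjusted p = 0.440), or 1.76-fold lower, and did not pass the test. In bulk samples such as these, less Hox RNA per cell and fewer cells with Hox RNA cannot be told apart.

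Hoxa2, the group 2 gene whose expression reaches farthest forward in the hindbrain, read 8.30, 8.25 and 7.72 in WT and 7.57, 6.74 and 7.15 in SOD1 (1419602_at). The 3 WT arrays and SOD1 replicate 1 were above background, and SOD1 replicates 2 and 3 were not. The groups did not overlap, and the difference was -0.94 ± 0.58 (limma, adjusted p = 0.489).

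Hoxb3, a group 3 gene of the caudal hindbrain, had probe sets that differed from each other. The first (1456229_at) read 9.47, 9.39 and 9.74 in WT and 9.13, 8.30 and 8.81 in SOD1, above background on every array. Again all SOD1 values were lower, with a difference of -0.79 ± 0.40 (limma, adjusted p = 0.385). The other (1427605_at) read 5.39, 9.54 and 8.48 in WT and 7.85, 7.80 and 8.48 in SOD1, so that WT replicate 1 was below background and the genotypes overlapped. That difference was 0.24 ± 0.91 (limma, adjusted p = 0.929), and without WT replicate 1 it was -0.97.

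Hoxa3, needed for pharyngeal glands and caudal cranial nerves, was read by 4 probe sets, and they did not move together. One (1431392_at) was above background on every array, at 7.88, 8.04 and 7.81 in WT and 8.55, 8.41 and 8.13 in SOD1. Here the SOD1 values were all higher, by 0.45 ± 0.48 (limma, adjusted p = 0.704). A second (1452421_at) read 7.86, 8.39 and 6.94 in WT and 8.95, 8.23 and 8.67 in SOD1, overlapping, with a difference of 0.88 ± 0.55 (limma, adjusted p = 0.486). The third (1427433_s_at), of a type that can share sequence between transcripts, read 7.93, 7.83 and 7.74 in WT and 7.40, 6.25 and 7.51 in SOD1. All its SOD1 values were lower, with a difference of -0.78 ± 0.63 (limma, adjusted p = 0.605), and SOD1 replicate 2 was below background. The fourth (1429398_at) was above background on 1 array, SOD1 replicate 1. In RefSeq the Hoxa3 model spans Hoxa4, Hoxa5 and Hoxa6, the Hoxb3 model spans Hoxb4 and the Hoxd3 model spans Hoxd4, so which transcript a probe set reads is uncertain.

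Hoxd3, a group 3 gene of the Hoxd cluster, read 8.07, 7.23 and 7.44 in WT and 7.20, 6.82 and 7.21 in SOD1 (1437664_at). WT replicates 1 and 3 were above background and the SOD1 arrays were not, and the groups did not overlap, though WT replicate 2 and SOD1 replicate 3 differed by little. The probe set was below the filter on low signal, and with no filter the difference was -0.50 ± 0.67 (limma, adjusted p = 0.837).

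**Figure D3:**
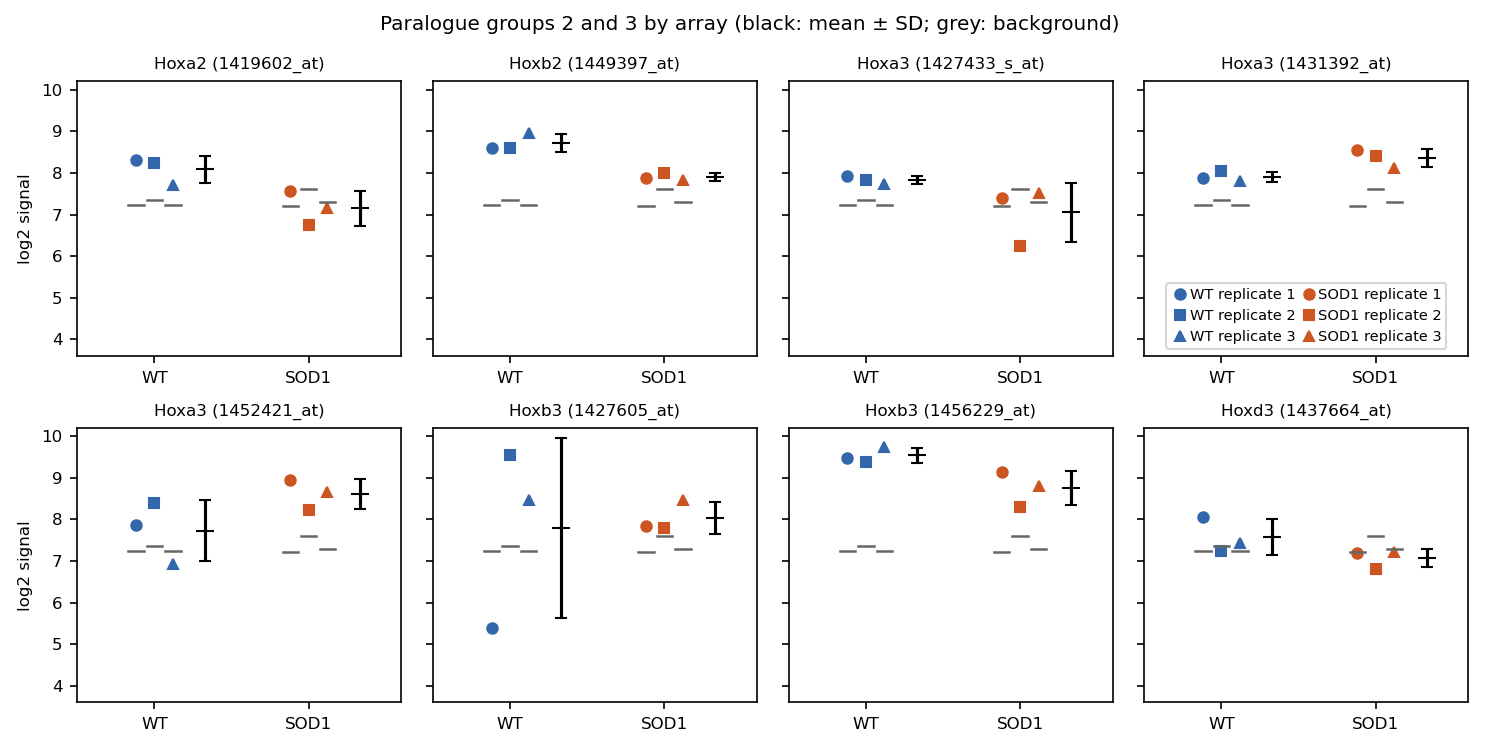
Log2 signal (y axis) on each array for the 8 probe sets of groups 2 and 3 described by array, with the background of that array as a grey line and the mean ± SD of each genotype (n = 3) in black. SOD1 points lie below all WT points for Hoxa2, Hoxb2, Hoxd3, 1 probe set of Hoxa3 and 1 of Hoxb3, and above them for another of Hoxa3.

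Hoxb1, the gene that gives facial motor neurons their identity, was below background on all 3 WT arrays. It read 4.73, 4.65 and 6.21 in WT and 7.39, 7.0 and 7.40 in SOD1 (1453501_at), and SOD1 replicates 1 and 3 were just above background. The groups did not overlap. The estimate was 2.07 ± 0.72 with no filter (limma, adjusted p = 0.285) and did not pass the test. Since the WT values are below background, its size depends on the pseudocount, and it was 2.87 with 1 and 1.21 with 64 in place of 16. The other group 1 member, Hoxd1, was below background on every array.

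Among the genes of groups 4 to 6, Hoxb4, which marks the caudal hindbrain and cervical cord, read 8.13, 6.82 and 7.44 in WT and 7.53, 7.46 and 7.91 in SOD1 (1460379_at). It was above background on 2 arrays of each genotype. Hoxa5, known for its part in phrenic motor neurons, read 8.80, 8.28 and 7.12 in WT and 6.79, 6.89 and 6.01 in SOD1 with 1 probe set (1443803_x_at). WT replicates 1 and 2 were above background, the groups did not overlap, and the difference was -1.50 ± 0.73 with no filter (limma, adjusted p = 0.468). The second Hoxa5 probe set (1448926_at) went the other way, at 1.09 ± 0.85, and was above background on SOD1 replicate 2 alone. The Hoxa5 probe set that was lower is of the type (_x_at) that can bind other transcripts.

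Hoxc5, also expressed in phrenic motor neurons, read 6.61, 7.68 and 7.50 in WT and 6.83, 5.07 and 7.86 in SOD1 (1439885_at). Hoxc6, a gene of forelimb motor neurons, was above background on all 3 WT arrays with 1 probe set (1427454_at), at 7.72, 7.41 and 7.78, and read 5.83, 4.80 and 7.81 in SOD1. SOD1 replicate 3 lay above the WT values, so the genotypes overlapped, and the difference was -1.49 ± 0.84 with no filter (limma, adjusted p = 0.543). It was -0.81 without SOD1 replicate 2, -2.33 without SOD1 replicate 3 and -0.11 with Xist as a covariate. A second Hoxc6 probe set (1427362_x_at) read 7.84, 8.0 and 5.66 in WT and 7.77, 5.73 and 6.76 in SOD1. Hoxb6 read 6.63, 6.71 and 8.23 in WT and 6.10, 8.25 and 7.49 in SOD1 (1451660_a_at). For Hoxc5, the second Hoxc6 probe set and Hoxb6, high and low arrays occurred in both genotypes.

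Some members of the trunk and tail groups also crossed the background. Hoxa9, a gene of the thoracic and limb-level cord, was above it on every array, at 7.74, 8.63 and 7.28 in WT and 8.40, 7.98 and 7.45 in SOD1 (1421579_at). WT replicate 3 exceeded its background of 7.23 by little, and with each of the other background levels 1421579_at was not above it on every array. A second Hoxa9 probe set (1455626_at) was above background on 1 array. Hoxc10, a gene of the lumbar cord, read 6.70, 7.78 and 8.46 in WT and 8.42, 7.86 and 7.84 in SOD1 (1439798_at), above background on all but WT replicate 1. Its difference was 0.39 ± 0.61 (limma, adjusted p = 0.807).

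Hoxb9, of the thoracic cord, read 5.99, 7.48 and 7.48 in WT and 5.70, 5.0 and 5.23 in SOD1 (1452317_at). All SOD1 values were below background and below all WT values, with a difference of -1.67 ± 0.71 with no filter (limma, adjusted p = 0.402). Hoxa11, a limb and kidney gene, read 7.99, 7.08 and 6.92 in WT and 7.57, 8.07 and 7.27 in SOD1 (1420414_at), overlapping. The other 29 members, which were above background on at most 1 array of each genotype, had 22 of 174 values above it.

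No Hox gene passed the test of SOD1 against WT. A filter removed the dimmest 40% of probe sets by mean signal, and 11 of the 48 members passed it (22.9%, against 60% of all probe sets). Of these 0 were called, where 0.185% of the 27022 tested were (50, limma, adjusted p under 0.05; 0.0629% higher and 0.122% lower in SOD1), and 0 had an unadjusted p under 0.05, against 14.7% of all tested. Their adjusted p-values ran from 0.385 to 0.971. With no filter, 0 of 48 were called, against 0.107% of 45037, and 3 had an unadjusted p under 0.05 (Hoxb1, Hoxb9 and Hoxd12), against 11.2%.

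Over all 48 members the median log2 change was 0.08 with no filter, beside 0.01 over all probe sets, with 25 estimates above 0 and 23 below. Groups did not overlap for 8 of the 48 members with SOD1 lower, a larger share than the 7.89% of all probe sets. They did not overlap for 3 of the 48 with SOD1 higher, a smaller share than the 8.58% of all probe sets. These shares were not tested. The 8 were the probe sets of Hoxa2, Hoxb2, Hoxd3, Hoxb9 and Hoxd10 and 1 each of Hoxa3, Hoxb3 and Hoxa5. The 3 were Hoxb1, Hoxd12 and the Hoxa3 probe set given above. Hoxd10 and Hoxd12, named here after their values were seen, read 5.59, 7.21 and 6.35 in WT and 4.46, 5.32 and 5.11 in SOD1 for Hoxd10, all below background, and 4.87, 5.31 and 5.33 in WT and 5.92, 8.11 and 6.82 in SOD1 for Hoxd12, with SOD1 replicate 2 above it.

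By paralogue group, the median change was -0.50 for the 9 probe sets of groups 2 and 3, with 5 estimates below 0 and 4 above. It was -0.38 over groups 1 to 4, -0.15 over groups 5 to 8 and 0.39 over groups 9 to 13, where 12 of 17 estimates were above 0. Most of those values lay below background. Of 11 genes with more than 1 probe set, 6 had estimates of the same sign (Hoxa4, Hoxc5, Hoxc6, Hoxd8, Hoxa9 and Hoxa10) and 5 of mixed sign (Hoxa3, Hoxb3, Hoxb4, Hoxa5 and Hoxd13). The spread between probe sets of a gene was as wide as 2.59 for Hoxa5.

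**Figure D4:**
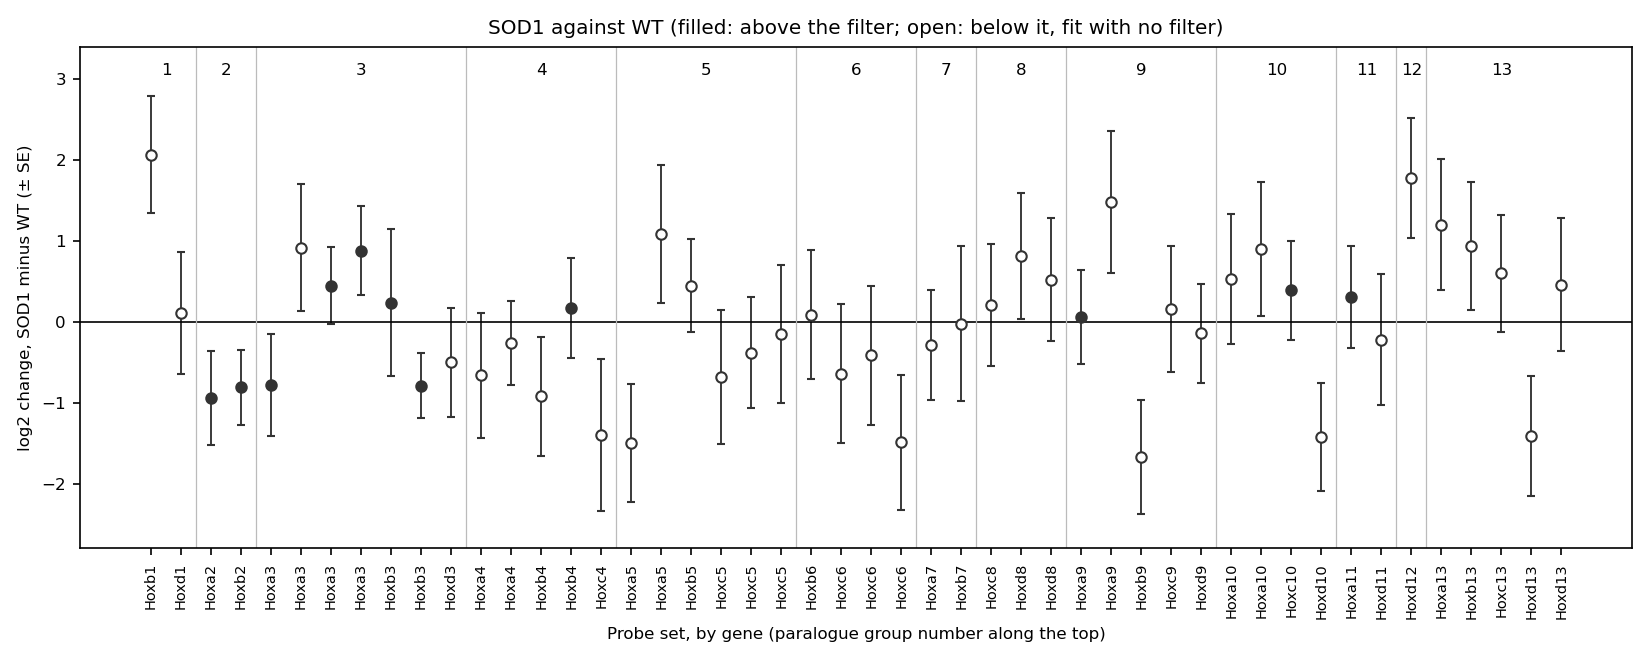
Log2 change, SOD1 minus WT, ± SE (y axis) for the 48 Hox probe sets (x axis, by gene within paralogue group), filled where the probe set passed the filter and open where it did not and the fit with no filter was used. Estimates lie on both sides of 0 (25 above, 23 below), and 0 passed the test.

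Genes that place a neuron along the axis by other means were read from lists, whose genes were chosen with earlier results of these data known. Forebrain and midbrain homeobox genes, such as Otx2 and En1, had 0 of 14 genes above background on all 6 arrays, taking its brightest probe set for each gene. By the same measure 21 of 84 values were above it (25.0%), and over all their probe sets 28 of 126 were (22.2%). Otx1, Otx2, Emx2, En1 and Dlx1 were above background on 0 arrays. Pax6 came nearest, with 5 of 6 arrays, at 8.31, 7.94 and 8.37 in WT and 7.87, 5.52 and 7.69 in SOD1.

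By the brightest probe set of each gene, factors of branchial and visceral motor neurons of the brainstem had 48 of 60 values above background. By the same measure, 7 of 10 genes were above it on all 6 arrays. Over all probe sets of these genes 69 of 102 values were above it (67.6%), near the 65.7% of the whole array. Tbx20, expressed in branchial and visceral motor neurons, read 11.24, 10.90 and 10.70 in WT and 11.65, 11.21 and 11.51 in SOD1 (1453351_at). Phox2a, needed for the oculomotor and trochlear nuclei, read 8.02, 7.79 and 7.47 in WT and 7.90, 7.84 and 8.05 in SOD1. Tbx2 was at -1.21 ± 0.37 (limma, adjusted p = 0.180) and Tbx3 at -0.93 ± 0.44 (1448029_at, limma, adjusted p = 0.355). The list had 0 calls, with a median of -0.56 over 11 probe sets tested. With Xist as a covariate it had 1 call, a second Tbx3 probe set (1437479_x_at) at -4.25 ± 0.56 (limma, adjusted p = 0.0345), which was at -1.74 ± 1.0 without it (adjusted p = 0.452). That probe set read 9.79, 9.97 and 10.03 in WT, and in SOD1 9.48 on replicate 1, a value between 9.97 and 10.03 on replicate 2 and 5.10 on replicate 3. Here SOD1 replicate 3, the SOD1 array with low Xist, stood apart.

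By the brightest probe set of each gene, factors known from spinal motor columns had 60 of 84 values above background (71.4%). By the same measure, 7 of 14 genes were above it on all 6 arrays. Over all probe sets of these genes 145 of 222 values were above it (65.3%), near the 65.7% of the whole array. Some of these factors, such as Isl1, Isl2 and Nkx6-1, also belong to brainstem motor neurons. Mnx1, a factor of spinal somatic motor neurons that some brainstem nuclei also use, was above background on WT replicate 1 alone, at 8.04, 6.39 and 6.10 in WT and 5.70, 6.40 and 6.36 in SOD1. Foxp1, which directs limb-level motor neurons, fell by 1.56 ± 0.24 with its highest probe set (1435222_at, limma, adjusted p = 0.0327). It read 14.17, 13.66 and 14.04 in WT and 12.81, 12.10 and 12.28 in SOD1. The other 6 Foxp1 probe sets tested ran from -2.41 to 0.02, and 5 of them were below 0. The list had 1 call, lower in SOD1, in 25 probe sets tested, with a median of -0.37.

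**Figure D5:**
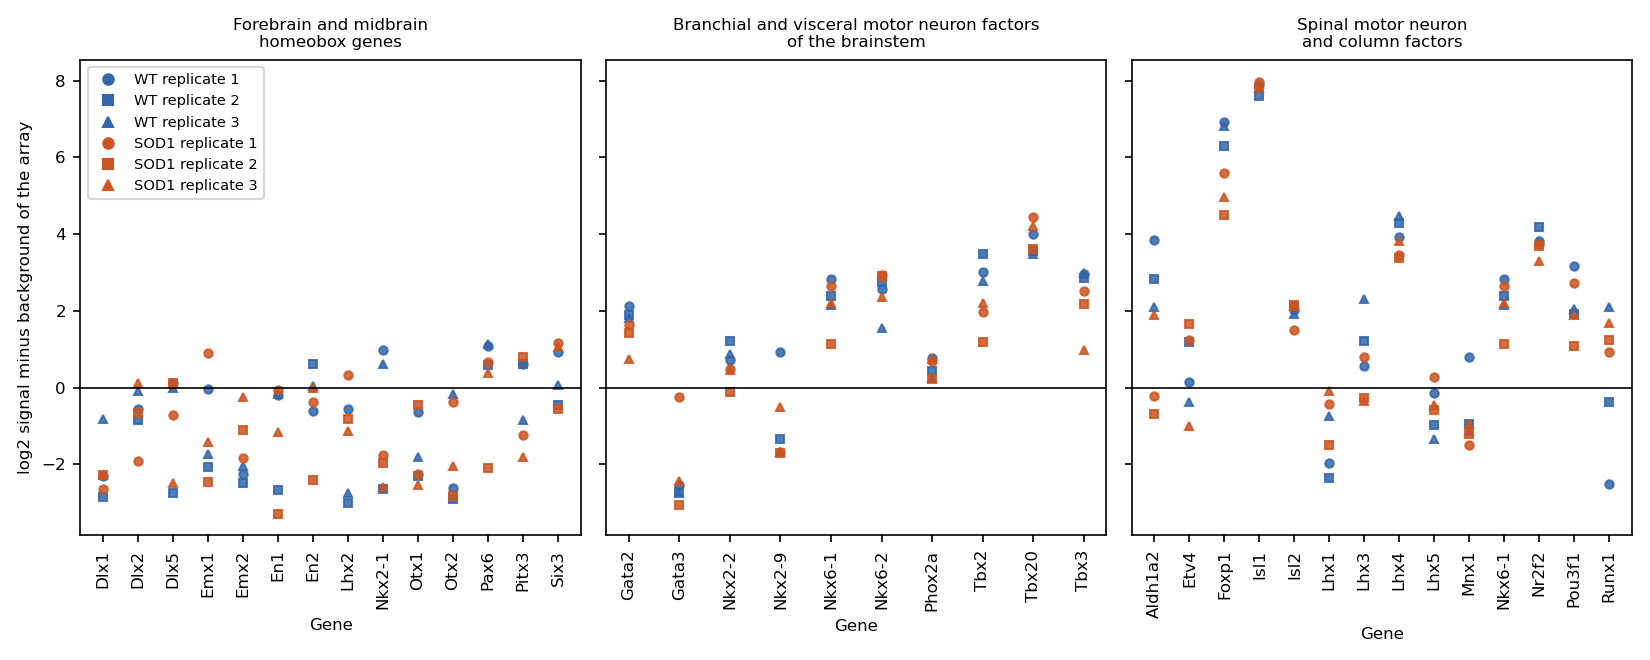
Log2 signal minus the background of the array (y axis) for genes of the forebrain and midbrain, of branchial and visceral brainstem motor neurons and of spinal motor neurons (x axis, the brightest probe set of a gene), with 1 point per array, blue for WT and orange for SOD1. Forebrain and midbrain genes lie mostly below 0 (21 of 84 above), and genes such as Tbx20 and Isl1 lie above it on every array.

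The proteins that bind DNA with Hox proteins were well measured. Of 8 TALE cofactor genes (Pbx, Meis and Pknox), by the brightest probe set of each, 7 were above background on all 6 arrays and Pbx4 on 5. Among their 17 probe sets tested 0 were called, and the median change was -0.42. Meis1 was at -1.72 ± 0.50 with 1 probe set (1443260_at, limma, adjusted p = 0.165), from 9.41, 10.15 and 10.69 in WT to 8.84, 8.81 and 7.44 in SOD1, where the groups did not overlap. A second Meis1 probe set (1450992_a_at) was at 0.43 ± 0.35. Meis2 was at -0.68 ± 0.22 (1417129_a_at, limma, adjusted p = 0.199), and its probe set 1457632_s_at at 0.14 ± 0.25. Pbx2 was at -0.47 ± 0.27 (1418893_at, limma, adjusted p = 0.442).

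Inducers of Hox expression in the embryo, the Cdx genes, Egr2, Fgf8 and Gbx2, were near or below background, with 4 of 36 values above it (the highest probe set of each of 6 genes), and 0 of their probe sets passed the filter. Retinoic acid genes had 0 calls in 11 probe sets tested and a median of -0.16. The estimate for Aldh1a2, an enzyme that makes retinoic acid, was -2.49 ± 0.66 (1422789_at, limma, adjusted p = 0.143), at 11.08, 10.17 and 9.33 in WT and 7.0, 6.93 and 9.20 in SOD1. SOD1 replicates 1 and 2 were below background, and SOD1 replicate 3 was close to WT replicate 3. Rarg, a retinoic acid receptor, was at -1.07 ± 0.39 (1419415_a_at, limma, adjusted p = 0.246), and Rxra, its partner, at -0.67 ± 0.26 (1454773_at, limma, adjusted p = 0.263), while a second Rxra probe set (1425762_a_at) was at 0.58 ± 0.42.

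Polycomb proteins, which keep Hox genes silent, had 0 calls in 45 probe sets tested, with a median of -0.08. Of the estimates, 19 were above 0 and 26 below. The genes with the smallest p were Cbx6 at -0.49 ± 0.13 (1424407_s_at, limma, adjusted p = 0.143), Kdm2b at -0.99 ± 0.31 (1459861_s_at, limma, adjusted p = 0.182) and Jarid2 at -1.10 ± 0.34 (1422697_s_at, limma, adjusted p = 0.184). Another tested probe set of each was at -0.24 ± 0.30 for Cbx6 (1429290_at), -0.23 ± 0.35 for Kdm2b (1452198_at) and -0.55 ± 0.32 for Jarid2 (1422698_s_at). Trithorax proteins, which keep Hox genes on, had 1 call in 27 probe sets tested. Kmt2a, the histone methyltransferase MLL1, fell by 1.77 ± 0.30 (1427283_at, limma, adjusted p = 0.0481), from 11.93, 12.41 and 12.76 in WT to 10.90, 10.47 and 10.42 in SOD1. The second Kmt2a probe set (1452377_at) was at -0.29 ± 0.44. Men1, its partner menin, was at -1.19 ± 0.28 (1416347_at, limma, adjusted p = 0.117), and Psip1, which tethers that complex to chromatin, at 1.07 ± 0.25 (1442148_at, limma, adjusted p = 0.117).

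The calls of Kmt2a and Foxp1 were near the threshold, while their differences kept their size. Without any 1 of the 6 arrays the difference of Kmt2a was -2.0 to -1.58 and its call was lost (limma, adjusted p = 0.0634 to 0.211). That of Foxp1 was -1.76 to -1.41, and its call was lost without any array other than SOD1 replicate 1 (adjusted p = 0.0604 to 0.147 for those 5, and 0.0392 without SOD1 replicate 1). With Xist as a covariate the differences were -1.85 for Kmt2a (adjusted p = 0.0951) and -1.66 for Foxp1 (adjusted p = 0.0776).

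Markers of other cell types differed between the genotypes beside these results. Sums of normalised signal, over the highest probe set of each gene, ran from 6383 to 10344 in WT and 2118 to 4059 in SOD1 for 8 endothelial genes, 1 of which (Flt1) fell. They ran from 21118 to 61675 and 3961 to 17309 for 6 smooth muscle and pericyte genes (1 fell, Acta2), and 21782 to 91539 and 6449 to 59519 for 5 meningeal fibroblast genes (0 called). For 6 microglial genes they were 4754 to 23403 in WT and 48628 to 91082 in SOD1 (2 rose, C1qa and Tyrobp), for 6 astrocyte genes 53815 to 65868 and 98671 to 105906 (2 rose, Aqp4 and Gfap), and for 5 oligodendrocyte genes 149355 to 167095 and 186592 to 193732 (0 called). For 8 motor neuron genes they were 250649 to 284680 and 240242 to 253057, and for 4 blood genes 402 to 9861 and 185 to 576, both with 0 called. Pecam1 and Tie1 of the endothelial genes, Des, Myh11, Pdgfrb and Tagln of the smooth muscle genes, Col1a1, Col3a1 and Lum of the fibroblast genes, Itgam of the microglial genes and all 4 blood genes were not above background on every array. The part of these cells in the Hox values was not tested.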

How the data were processed

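The series holds 6 arrays of brainstem motor neuron RNA, 3 WT and 3 SOD1, grouped by the titles in the labels. The values the authors deposited are signal intensities on a linear scale. All 6 arrays share a 2% trimmed mean of 2500.02, so each had been scaled. The sources used here do not name the algorithm behind them or describe how cells were collected, and per the labels' protocols the RNA was amplified in 2 rounds. Such amplification favours 3' ends, so probe sets far from them can read low.

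Array medians ran from 267 to 315, so the arrays were quantile normalised, 16 was added and log2 was taken. Adding 16 understates changes of low genes, and most Hox values are low. The 64 control probe sets were left out of the tests, and 27022 probe sets left after removing the dimmest 40% were fitted with limma 3.58.1 in R 4.3.3 (variance trend, two-sided, Benjamini-Hochberg adjustment over all tested, threshold 0.05). Members below the filter were read from a fit of all 45037. The limma step was tested on simulated data. Gene names come from the platform annotation, where 34945 probe sets have 1 symbol, 932 several and 9160 are not listed.

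Named members are those above background on at least 2 of 3 arrays of either genotype or past the threshold, and from each list the genes past the threshold and up to 3 with the smallest p. Other genes named were chosen after their values were seen. The members, lists and tests were chosen with earlier results of these data known. Alternatives were other scalings, pseudocounts (1 and 64), filters, variance models, array weights, a replicate block, an Xist covariate, each array left out, no shared probe sets, a threshold of 0.1 and other background levels. Figures were drawn with matplotlib 3.10.9.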

Additional observations from a re-analysis of the deposited data

How the results depend on the processing

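In 18 alternative settings 0 Hox probe sets were called, as with a threshold of 0.1 (limma, lowest adjusted p = 0.223 over the 19 named members), and 11 of the 19 kept their sign wherever they were fitted. The 191 calls at that threshold stand against 50 at 0.05. The count of all probe sets called was 87 with a pseudocount of 64, 106 with a filter at the 60th percentile, 0 without the variance trend (where the fit called 0 probe sets of any gene), 100 with array weights, 76 with the replicate block, and 0 to 79 when 1 array was left out. Calls in the 8 pathway lists numbered 2, against 1 with median centring, a pseudocount of 1 or the replicate block (Foxp1 each time) or with the Xist covariate (a Tbx3 probe set, with Kmt2a and Foxp1 lost), 0 without the variance trend and 0 to 1 when 1 array was left out. Same-numbered samples did not deviate together (correlations 0.0285, -0.0401 and -0.0143 for numbers 1 to 3). For differently numbered samples the correlations ran from -0.0675 to 0.0762. With 3 samples per genotype this cannot exclude that the replicate numbers pair the samples. The replicate block called 0 Hox probe sets. The number of Hox probe sets above background on all arrays, 4, was 2 with the highest bacterial control, 1 with the olfactory receptor level and 4 to 6 when 1 array was left out.

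Some members kept their sign but moved by over 1.5 times. Without SOD1 replicate 2 Hoxa3 (1427433_s_at) was at -0.38, without WT replicate 3 Hoxa3 (1452421_at) was at 0.49, and without WT replicate 1 Hoxd3 was at -0.26. With the Xist covariate these were -0.42 for Hoxa3 (1427433_s_at), 0.25 for Hoxa3 (1431392_at) and -0.11 for Hoxc6 (1427454_at). With a pseudocount of 64 Hoxb1 was at 1.21, Hoxb9 at -1.02 and Hoxc6 (1427454_at) at -0.93.

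Signs turned for low or small estimates. Hoxa9 (1421579_at) was at -0.02 as deposited, -0.06 with array weights, -0.39 with the Xist covariate and -0.24 to 0.44 when 1 array was left out. With the Xist covariate Hoxa11 was at -0.07 and Hoxc5 at 0.43. When 1 array was left out, the ranges were -1.32 to 0.08 for Hoxc5 (1439885_at), -0.97 to 1.11 for Hoxb3 (1427605_at), -0.08 to 0.79 for Hoxc10, -0.40 to 0.68 for Hoxb6, -0.15 to 0.50 for Hoxb4 (1460379_at) and -1.16 to 0.10 for Hoxc6 (1427362_x_at). The cause was not tested. Signal over background limits what most members can show.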

Other observations

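Probe sets at the Hox clusters that are not members, because they name several genes or an antisense transcript, were also read. Hoxb5os, an antisense transcript beside Hoxb5, was above background on all 6 arrays, at 8.34, 8.29 and 7.97 in WT and 8.43, 8.49 and 9.30 in SOD1 (1447886_at), while the Hoxb5 probe set was above it on 0 arrays. The difference was 0.54 ± 0.47 (limma, adjusted p = 0.631), and all SOD1 values were higher than all WT values.

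A probe set of Hoxa11os, antisense to Hoxa11, read 4.50, 4.83 and 5.59 in WT and 6.69, 7.26 and 7.41 in SOD1 (1457646_at), above background on SOD1 replicate 3 alone, with a difference of 2.15 ± 0.67 with no filter (limma, adjusted p = 0.240). The second Hoxa11os probe set (1452400_a_at) was below background on every array, at -0.46 ± 0.59. The probe set shared by Hoxb7 and Hoxb8 read 7.67, 5.32 and 7.48 in WT and 7.32, 4.90 and 5.42 in SOD1 (1452493_s_at). Of the probe sets shared by Hoxd3 and Hoxd4, 1450209_at was below background on every array, and 1421537_at was above it on WT replicate 1 and SOD1 replicates 1 and 3. Those of Hoxd3os1, 1430263_at and 1460056_at, were each above background on 1 array.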
